A study of Rattus norvegicus with 16 samples.

Results

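Chemokines are small secreted proteins that steer leukocytes along concentration gradients, and chemokine receptors are G protein-coupled receptors on the cells that respond. They were followed here as 45 genes measured in rat liver, 29 for ligands and 16 for receptors, out of 13438 genes with a named probe set. Membership followed a rule on symbols, chosen with earlier results of these data known. The rule took every probe set with 1 platform symbol starting with Ccl, Ccr, Cxcl, Cxcr, Xcl, Xcr or Ackr and a number. Probe sets with the symbol Cx3cl1 or Cx3cr1 were also taken, which gave 57 in all. A gene with several probe sets is represented by the one with the highest mean over the 16 arrays. Receptors such as Ccr7 and Cxcr6 were not analysed here.

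The 16 livers came from male F344 rats, an inbred laboratory strain, 4 weeks old per the labels and reared for 3 weeks in 4 groups of 4, with 1 array per sample. The control/normal group ate CE-2, a basal chow, drank dehydrogenized water and breathed air. In the hydrogen/normal group the same chow was combined with hydrogen-rich water (0.7 mM dissolved hydrogen) and air holding 2% hydrogen. The control/CDAA and hydrogen/CDAA groups received the same pair of treatments on the CDAA diet, in which protein is replaced by L-amino acids and choline is lacking and which serves as a model of fatty liver with later fibrosis. All 4 groups drank electrolysed distilled water with sodium sulphate, which was stirred in open air until the hydrogen had left it for the control groups. The diets came from different makers and differ in more than choline, and hydrogen came by water and air at once, so the diet and hydrogen comparisons each cover everything that differed. Probes were those of the Affymetrix RG-230 PM array, and the values are normalised log2 signals (RMA), so a difference of 1 is a 2-fold difference. As a check of the tissue, the mean over 7 hepatocyte genes, albumin among them, lay between 12.65 and 12.77 log2 on all arrays.

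Ligands fall into structural classes by the spacing of their leading cysteines (CC, CXC, CX3C and C), and each receptor binds a subset of them. CXC ligands with an ELR motif, such as Cxcl1, draw neutrophils through Cxcr2, and Cxcl9, Cxcl10 and Cxcl11 draw activated lymphocytes through Cxcr3. In the liver, Ccl2 is known for drawing monocytes through Ccr2, Cxcl12 for retaining Cxcr4-bearing cells, and Ccl19 and Ccl21 for organising lymphoid tissue around the portal tracts. Atypical receptors (Ackr1 to Ackr4) bind chemokines without classical signalling and take them up.

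Promoter sequences are shown for the ligands Cxcl1 and Cxcl16 and the receptor Cxcr4, which had among the largest diet changes described below, and, chosen after values were seen, for Cxcl10 and for Cxcl2 and Cxcl6, which lie in the same gene cluster as Cxcl1. Each line gives the 150 bases before the annotated start in RefSeq (GRCr8), 5′ to 3′ on the gene's strand, and capitals mark matches to the NF-kappaB consensus or to TGANTCA, the motif bound by AP-1. The windows are chr14:17479322-17479471 (minus strand) for Cxcl1, chr14:17467256-17467405 (minus) for Cxcl2, chr14:17596418-17596567 (minus) for Cxcl6, chr14:15988916-15989065 (plus) for Cxcl10, chr10:55669951-55670100 (minus) for Cxcl16 and chr13:42634289-42634438 (minus) for Cxcr4. Ccl2 is named only.
Cxcl1: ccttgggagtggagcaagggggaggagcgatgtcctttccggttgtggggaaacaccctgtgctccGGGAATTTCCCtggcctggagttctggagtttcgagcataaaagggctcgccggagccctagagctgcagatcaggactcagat
Cxcl2: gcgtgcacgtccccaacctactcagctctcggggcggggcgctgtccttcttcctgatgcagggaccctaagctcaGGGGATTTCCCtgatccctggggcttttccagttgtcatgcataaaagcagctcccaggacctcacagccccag
Cxcl6: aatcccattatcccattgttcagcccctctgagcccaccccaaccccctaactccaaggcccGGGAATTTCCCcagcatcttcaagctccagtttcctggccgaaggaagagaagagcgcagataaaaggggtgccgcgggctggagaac
Cxcl10: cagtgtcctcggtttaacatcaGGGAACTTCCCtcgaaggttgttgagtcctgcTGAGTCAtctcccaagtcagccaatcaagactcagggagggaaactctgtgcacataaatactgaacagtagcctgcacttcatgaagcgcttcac
Cxcl16: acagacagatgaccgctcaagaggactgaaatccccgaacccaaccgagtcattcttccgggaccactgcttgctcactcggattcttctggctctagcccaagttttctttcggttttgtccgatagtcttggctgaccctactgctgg
Cxcr4: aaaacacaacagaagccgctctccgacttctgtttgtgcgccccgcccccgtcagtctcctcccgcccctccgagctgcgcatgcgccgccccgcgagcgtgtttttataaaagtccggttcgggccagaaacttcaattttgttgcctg
Within 250 bases before the start, 35 of the 45 members had a sequence, and both strands were searched. The NF-kappaB consensus matched in 9 of the 35 (25.7%) and in 2117 of all 33469 promoters of the table (6.33%). TGANTCA matched in 5 members (14.3%) against 6.34% of all promoters, TTCNNNGAA (bound by STAT factors) in 4 (11.4%) against 7.67%, and the interferon regulatory factor motif (GAAA, any 2 bases, GAAA) in 2 (5.71%) against 3.41%. The members with an NF-kappaB match included Cxcl1 and Cxcl10, both higher on the CDAA diet, but also Cxcl2 and Cxcl6, whose signals stayed near background in every group. By call, the match was present in 3 of the 11 genes with a sequence that were called higher on the CDAA diet, 0 of 5 called lower, 3 of 12 tested but not called and 3 of 7 not tested. Neighbouring ligand genes are related copies and share sequence, and the NF-kappaB matches on the 2 strands can overlap by all but 1 base. These matches describe letters in the window and do not locate binding.

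Signals were read against a background line of 3.68 log2, the 30th percentile of all values without array controls, and a gene was tested when it exceeded the line on at least 4 arrays. Of the 45 genes 36 passed, 25 of 29 ligand genes and 11 of 16 receptor genes. Cxcr2, the receptor of the ELR ligands, and Ccr2, the receptor of Ccl2, stayed under the line on all 16 arrays (3.30 to 3.62 and 3.01 to 3.30 log2). The same held for the eosinophil-directed ligand Ccl11 (3.07 to 3.35) and its receptor Ccr3 (3.21 to 3.58), for Ccl28 (3.07 to 3.38) and Ccr10 (3.15 to 3.41), and for the ELR ligands Cxcl2 (3.21 to 3.62) and Cxcl6 (3.10 to 3.33). Ackr2, a scavenger of inflammatory CC ligands, exceeded the line on 2 arrays (3.40 to 3.74) and was not tested. No fold is given for these 9 genes, and a signal near background says only that the probe set gave no clear signal here. Of the 36 tested genes 26 lay above the line on all 16 arrays and 10 on some.

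**Figure D1:**
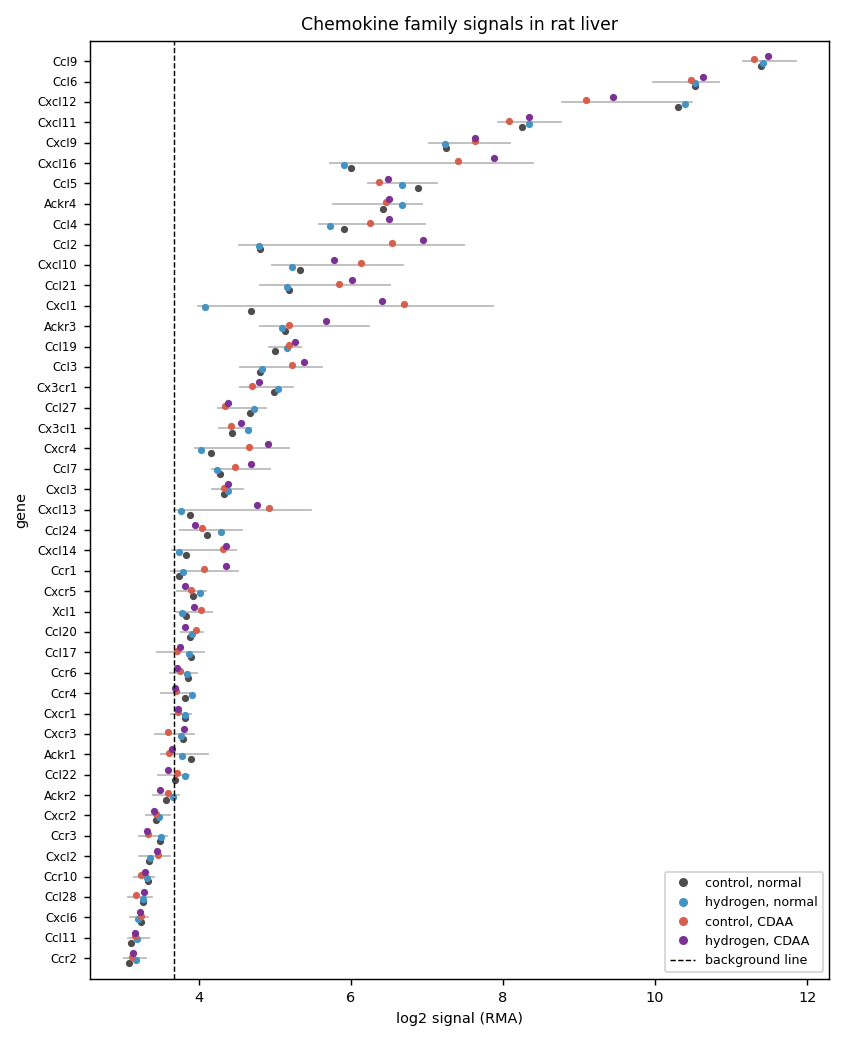
Log2 RMA signal of the 45 family genes (x axis, one row per gene), with coloured points for the means of the 4 groups of 4 arrays, grey lines from the lowest to the highest of 16 arrays and a dashed background line at 3.68. Signals of different probe sets do not rank RNA amounts; 8 genes lie left of the line on every array, while Ccl2, Cxcl1, Cxcl16 and Cxcl12 span wide ranges in which the diets separate.

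Of the probe sets with the 5 highest mean signals, those of Cxcl12 separated the diets (below) and those of Ccl9, Ccl6, Cxcl11 and Cxcl9 were called in no comparison. Ccl9, a CC ligand of macrophages, gave 11.37, 11.37, 11.41 and 11.40 in the control/normal group, 11.50, 11.47, 11.34 and 11.39 in hydrogen/normal, 11.53, 11.17, 11.35 and 11.15 in control/CDAA and 11.43, 11.85, 11.37 and 11.31 in hydrogen/CDAA log2. These 16 values lay within 11.15 to 11.85, and the diet groups overlapped. Ccl6, a related CC ligand, gave 10.58, 9.97, 10.84 and 10.73 in the control/normal group, 10.53, 10.70, 10.56 and 10.31 in hydrogen/normal, 10.38, 10.23, 10.56 and 10.70 in control/CDAA and 10.59, 10.62, 10.65 and 10.64 in hydrogen/CDAA. Its groups overlapped too, with the lowest value on a control/normal array and with log2 diet changes of −0.06 ± 0.149 (standard error) in control and 0.10 ± 0.149 in hydrogen-treated rats (limma adjusted p = 0.774 and 0.603).

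Single arrays touched several results. The hydrogen/CDAA replicate 2 array was the highest of its group in 19 of 36 family genes (52.8%), against 31.6% of all tested genes, and in 8 of the 14 members called higher on the CDAA diet. The control/normal replicate 4 array was the highest of its group in 14 of 36, nearer the share of all genes (38.9% against 31.2%). It was likewise the highest in 8 of the 14 members called higher, and hydrogen/normal replicate 3 in 7. Control/normal replicate 3 was the highest in 12 of 36 (33.3% against 21.7%), and hydrogen/CDAA replicate 3 in only 2 (5.56% against 24.9%). No share over all diet-raised genes stands beside the counts among the 14. The design text gives 4 rats to a group, and p-values measure the spread between them.

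The CDAA diet changed 16 of 36 family genes in control rats, 11 higher and 5 lower, and 19 in hydrogen-treated rats, 12 higher and 7 lower (limma, adjusted p under 0.05 over 22634 probe sets). Of all 11435 genes tested, 27.3% were called higher and 13.3% lower in control rats (40.6% in all), and 32.1% higher and 17.3% lower in hydrogen-treated rats (49.5% in all). The family's shares (30.6% and 13.9%, then 33.3% and 19.4%) lay near these backgrounds, and as a whole the family was called about as often as genes at large. The median log2 change over the 36 genes was 0.03 in control and 0.05 in hydrogen-treated rats, beside 0.04 and 0.05 over all genes, and the median size of change was 0.20 and 0.24 beside 0.17 and 0.20. The diet groups did not overlap in 14 members in control rats (38.9%, background 38%) and in 19 in hydrogen-treated rats (52.8%, background 43.8%). When each array was centred on the median of the tested probe sets, a scaling added after seeing the data that moved the median change of all tested probe sets from −0.0025 to −0.0675 and −0.10, the counts became 10 higher and 8 lower in control rats and 11 and 11 in hydrogen-treated rats. No called gene changed direction under any setting tried. The largest changes of single members were those of Cxcl1, Ccl2 and Cxcl16 upwards and of Cxcl12 downwards.

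**Figure D2:**
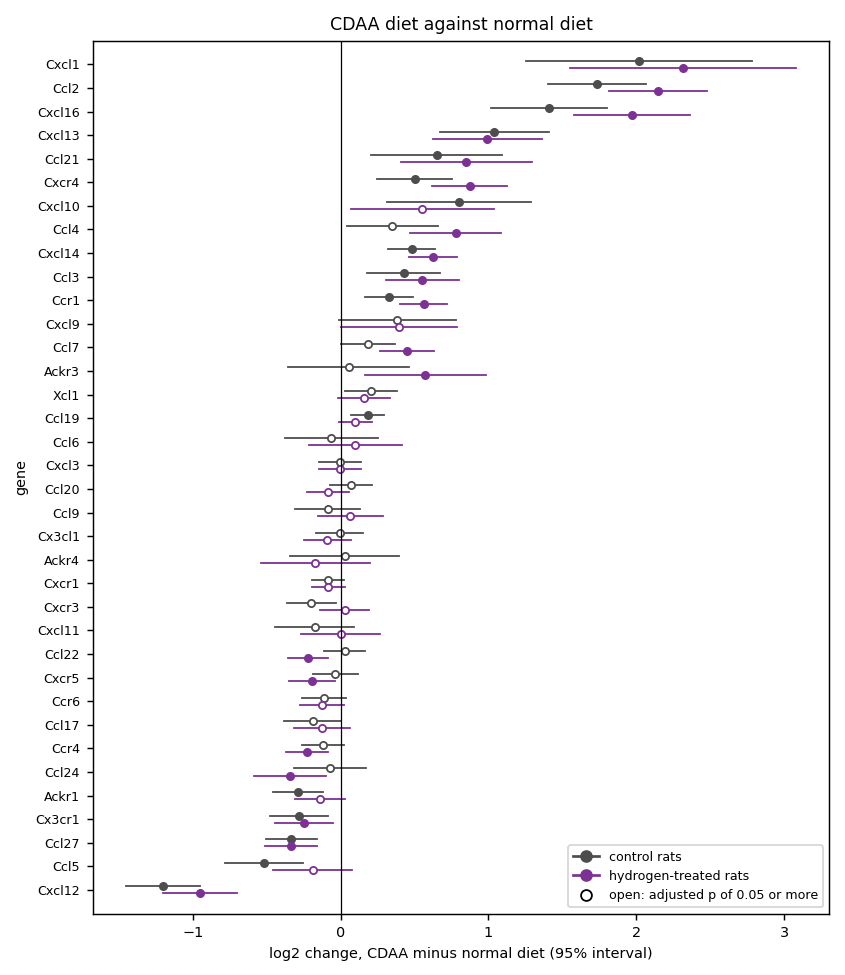
Log2 change on the CDAA diet against the normal diet (x axis) for the 36 tested family genes (rows), in control rats (grey) and hydrogen-treated rats (purple), with 4 arrays per group; lines are 95% intervals and filled points have a limma adjusted p under 0.05. Cxcl1, Ccl2 and Cxcl16 stand at the top with changes of 1.41 or more in both comparisons, and Cxcl12 stands at the bottom.

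Among the ELR ligands, Cxcl1, the neutrophil attractant also called KC or CINC-1, carried the largest diet change of the family. Its signals were 4.67, 4.67, 4.02 and 5.37 in the control/normal group, 4.15, 4.11, 4.10 and 3.99 in hydrogen/normal, 6.83, 6.88, 6.81 and 6.27 in control/CDAA and 5.94, 7.87, 5.71 and 6.09 in hydrogen/CDAA log2. Every CDAA array lay above every normal-diet array, and the hydrogen/CDAA replicate 2 and control/normal replicate 4 arrays were the highest of their groups. The change was 2.02 ± 0.361 log2 in control rats (4.04-fold, limma adjusted p = 0.000486) and 2.32 ± 0.361 in hydrogen-treated rats (4.98-fold, adjusted p = 0.000105). Without control/normal replicate 4 the control value was 4.74-fold, and without hydrogen/CDAA replicate 2 the value under hydrogen was 3.55-fold. Cxcl3, another ELR ligand, lay between 4.18 and 4.58 on its representing probe set, with a change of 0.00 log2 in both diet comparisons. Of its 4 other probe sets 2 failed the filter, and the 2 that passed pointed lower. One, whose name ends in _x_at and which by Affymetrix naming can share probes with other transcripts, was lower in control rats by 0.29 log2 (adjusted p = 0.00207), and the other in hydrogen-treated rats by 0.23 (adjusted p = 0.017). Cxcr1, an ELR ligand receptor, spanned 3.64 to 3.90 and was called in neither comparison (adjusted p = 0.221 and 0.206).

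Neutrophil markers gave little signal beside the change of Cxcl1. Of 6 neutrophil genes measured, S100a8, Csf3r, Camp and Mmp8 did not pass the filter of at least 4 arrays above the background line. The mean over the 6 was 3.70 to 3.75 log2 in control/normal, 3.63 to 3.71 in hydrogen/normal, 3.52 to 3.64 in control/CDAA and 3.59 to 3.80 in hydrogen/CDAA livers. Only 2 of the 6 were tested. S100a9 was 1.45-fold lower on the CDAA diet in control rats (limma adjusted p = 0.00251), and neither of the 2 was called in hydrogen-treated rats.

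The ligands of Cxcr3, which are induced by interferon gamma, did not move as a block. Cxcl10 gave 5.24, 5.10, 5.52 and 5.45 in the control/normal group, 4.96, 5.20, 5.40 and 5.36 in hydrogen/normal, 6.38, 6.23, 5.87 and 6.03 in control/CDAA and 5.26, 6.68, 5.37 and 5.82 in hydrogen/CDAA log2. In control rats all 4 CDAA arrays exceeded all 4 normal-diet arrays, a change of 0.80 ± 0.229 (1.74-fold, limma adjusted p = 0.0124), while under hydrogen the groups overlapped and the change of 0.55 ± 0.229 was not called (adjusted p = 0.0601). The change under hydrogen was called when hydrogen/CDAA replicate 1 or 3 was left out. The difference between these diet changes was not called in the main fit (interaction −0.25 ± 0.324, adjusted p = 0.855). Cxcl9 gave 7.06, 7.43, 7.39 and 7.12 in the control/normal group, 7.49, 7.22, 7.07 and 7.18 in hydrogen/normal, 8.07, 7.67, 7.76 and 7.03 in control/CDAA and 7.54, 8.09, 7.52 and 7.39 in hydrogen/CDAA. The groups overlapped on this probe set and neither diet change was called (0.38 ± 0.186 and 0.40 ± 0.186, adjusted p = 0.124 and 0.0948). The other probe set of Cxcl9 was called higher in both, by 0.50 log2 in control rats (adjusted p = 0.0451) and 0.72 in hydrogen-treated rats (adjusted p = 0.00515), so the call for Cxcl9 depends on the probe set. Cxcl11 gave 8.18, 8.35, 8.21 and 8.25 in the control/normal group, 8.21, 8.51, 8.32 and 8.34 in hydrogen/normal, 7.93, 8.31, 8.02 and 8.03 in control/CDAA and 8.26, 8.76, 7.98 and 8.38 in hydrogen/CDAA. Its groups overlapped and its diet changes were −0.18 and 0.00 log2 (adjusted p = 0.303 and 1.00). Cxcr3 lay above the background line on 11 arrays (3.43 to 3.94 in all) and was not called (adjusted p = 0.0605 and 0.794).

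Cxcl12, the ligand of Cxcr4 and Ackr3, was the member that fell most. Its signals were 10.41, 10.31, 10.34 and 10.13 in the control/normal group, 10.36, 10.48, 10.46 and 10.28 in hydrogen/normal, 8.78, 9.39, 9.03 and 9.19 in control/CDAA and 9.63, 9.28, 9.25 and 9.62 in hydrogen/CDAA log2. Every CDAA array lay below every normal-diet array, by a mean of 1.20 log2 in control rats (standard error 0.118, 2.30-fold lower, limma adjusted p = 5.87e-06) and 0.95 in hydrogen-treated rats (1.93-fold lower, adjusted p = 1.49e-05). The other 2 probe sets of Cxcl12 were also called lower in both comparisons, by −0.60 and −1.15 log2 in control rats and by −0.47 and −1.02 in hydrogen-treated rats. Bulk liver RNA cannot tell fewer cells of a type from less RNA per cell, for this gene and for all that follow.

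Cxcr4, the signalling receptor of Cxcl12, moved the other way. Its signals were 4.12, 4.20, 3.95 and 4.36 in the control/normal group, 3.96, 4.00, 3.96 and 4.21 in hydrogen/normal, 4.64, 4.55, 4.80 and 4.64 in control/CDAA and 5.18, 4.94, 5.00 and 4.50 in hydrogen/CDAA log2. The CDAA arrays exceeded the normal-diet arrays in both comparisons, with changes of 0.50 ± 0.12 in control rats (1.41-fold, limma adjusted p = 0.00407) and 0.87 ± 0.12 in hydrogen-treated rats (1.83-fold, adjusted p = 3.57e-05). The representing probe set again ends in _x_at. Of the 2 others, 1 was called higher in both comparisons (0.43 and 0.63 log2). Its normal-diet signals were near background, at 3.50 to 3.79 in control/normal and 3.48 to 3.65, all under the line, in hydrogen/normal. The last was not called in control rats (0.29, adjusted p = 0.0802) but was higher under hydrogen (0.58, adjusted p = 0.00135). It too started near the line, at 3.55 to 3.93 in control/normal and 3.57 to 4.00 in hydrogen/normal. Ackr3, which takes up Cxcl12, gave 4.85, 4.90, 5.24 and 5.52 in the control/normal group, 5.10, 5.09, 5.15 and 5.05 in hydrogen/normal, 5.30, 4.81, 5.42 and 5.20 in control/CDAA and 5.35, 6.24, 5.25 and 5.84 in hydrogen/CDAA. In control rats the diet groups overlapped (0.06 ± 0.193, adjusted p = 0.851), and under hydrogen they did not (0.57 ± 0.193, 1.49-fold, adjusted p = 0.0242). Without hydrogen/CDAA replicate 2 the call under hydrogen was lost (0.38 log2, adjusted p = 0.0832), as it was without hydrogen/CDAA replicate 4 or hydrogen/normal replicate 4 and under both the repeated quantile normalisation and the centring above. The interaction was not called (adjusted p = 0.579).

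**Figure D3:**
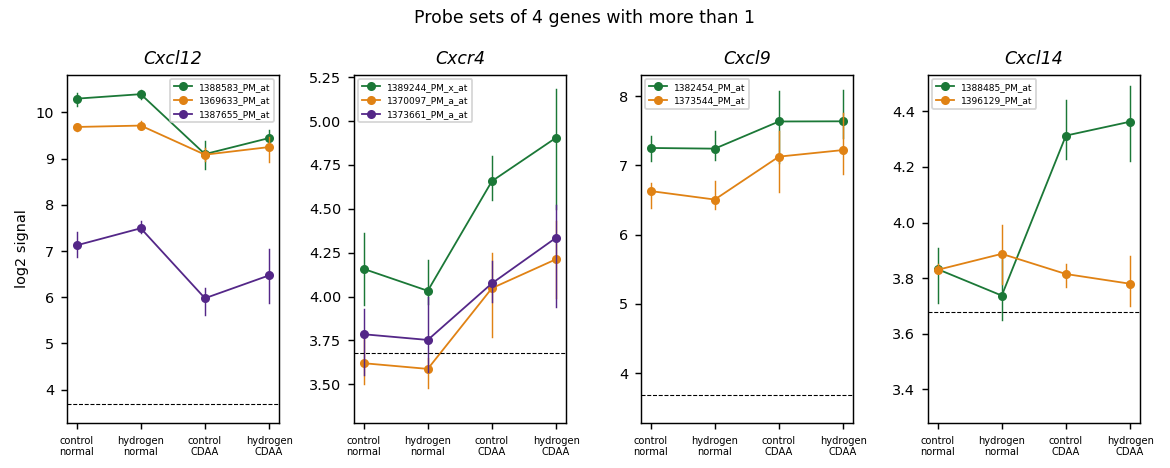
Log2 signal (y axis, not starting at 0) of each tested probe set of Cxcl12, Cxcr4, Cxcl9 and Cxcl14 in the 4 groups (x axis, 4 arrays each); points are group means joined per probe set, vertical lines run from the lowest to the highest array, and the dashed line is the background line at 3.68. All 3 probe sets of Cxcl12 are lower on the CDAA diet and all 3 of Cxcr4 have higher means, whereas 1 of 2 probe sets of Cxcl14 does not follow the other.

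Cxcl16, a membrane-bound ligand that also acts as a scavenger receptor of oxidised lipoprotein, rose clearly. It gave 5.72, 5.85, 5.90 and 6.54 in the control/normal group, 5.74, 6.00, 5.78 and 6.13 in hydrogen/normal, 7.51, 7.28, 7.64 and 7.22 in control/CDAA and 7.88, 8.39, 7.76 and 7.49 in hydrogen/CDAA log2. No CDAA array overlapped a normal-diet array, and the change was 1.41 ± 0.185 in control rats (2.66-fold, limma adjusted p = 4.10e-05) and 1.97 ± 0.185 in hydrogen-treated rats (3.91-fold, adjusted p = 1.41e-06). Leaving out control/normal replicate 4 gave 3.01-fold in control rats, and leaving out hydrogen/CDAA replicate 2 gave 3.48-fold under hydrogen. Cxcl13, the B-cell attractant of lymphoid follicles, gave 3.83, 3.90, 3.94 and 3.87 in the control/normal group, 3.67, 3.78, 3.89 and 3.74 in hydrogen/normal, 4.83, 5.08, 5.48 and 4.31 in control/CDAA and 4.50, 4.87, 4.66 and 5.02 in hydrogen/CDAA. Normal-diet arrays sat at or just above the background line, 1 of them below it, and all CDAA arrays were higher. Its changes were 1.04 ± 0.173 (2.06-fold, adjusted p = 0.000265) and 0.99 ± 0.173 (1.99-fold, adjusted p = 0.000278). Its receptor Cxcr5 gave 3.98, 3.94, 3.93 and 3.86 in the control/normal group, 4.09, 3.95, 4.06 and 3.94 in hydrogen/normal, 3.96, 3.71, 3.81 and 4.09 in control/CDAA and 3.87, 3.81, 3.73 and 3.85 in hydrogen/CDAA. These values lay close to the line, and Cxcr5 was called lower in hydrogen-treated rats (−0.20 ± 0.0728, adjusted p = 0.0392), but not in control rats (adjusted p = 0.741) and not without hydrogen/CDAA replicate 2 (adjusted p = 0.0665). Leaving out hydrogen/CDAA replicate 3 or hydrogen/normal replicate 1 or 3 also ended that call, with adjusted p up to 0.122 over all settings. Cxcl14, an epithelial chemokine, gave 3.80, 3.91, 3.71 and 3.91 in the control/normal group, 3.65, 3.87, 3.65 and 3.78 in hydrogen/normal, 4.23, 4.44, 4.34 and 4.24 in control/CDAA and 4.43, 4.31, 4.22 and 4.49 in hydrogen/CDAA. Its representing probe set was higher on every CDAA array (1.39-fold and 1.54-fold, adjusted p = 0.000183 and 1.21e-05). Its normal-diet signals lay close to the background line, and only 2 of the 4 hydrogen/normal arrays exceeded it. The other probe set of Cxcl14 was flat (−0.01 and −0.11 log2, not called).

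Ccl2, the monocyte attractant also called MCP-1, had the smallest p-value of the family in both diet comparisons. It gave 4.76, 4.53, 4.82 and 5.11 in the control/normal group, 4.74, 4.70, 4.95 and 4.79 in hydrogen/normal, 6.40, 6.50, 6.70 and 6.56 in control/CDAA and 6.72, 7.49, 6.58 and 6.98 in hydrogen/CDAA log2. The CDAA arrays stood clear of the normal-diet arrays, with a change of 1.74 ± 0.157 in control rats (3.33-fold, limma adjusted p = 3.72e-06) and 2.15 ± 0.157 in hydrogen-treated rats (4.43-fold, adjusted p = 2.47e-07). Ccl7, a neighbour of Ccl2 on chromosome 10 and another Ccr2 ligand, gave 4.20, 4.21, 4.38 and 4.34 in the control/normal group, 4.27, 4.28, 4.17 and 4.22 in hydrogen/normal, 4.51, 4.37, 4.49 and 4.51 in control/CDAA and 4.63, 4.93, 4.76 and 4.41 in hydrogen/CDAA. It was not called in control rats (0.19 ± 0.0866, adjusted p = 0.105) and rose in hydrogen-treated rats (0.45 ± 0.0866, 1.36-fold, adjusted p = 0.000645), without a called difference between the diet changes (adjusted p = 0.546). In control rats Ccl7 was called higher without hydrogen/CDAA replicate 4 and with only the 8 arrays compared. Ccl11, the third gene of that cluster, stayed under the background line.

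Ccl3 and Ccl4, known as macrophage inflammatory proteins, and Ccl5, a T-cell and NK-cell product, lie together in another cluster with Ccl6 and Ccl9. Ccl3 gave 4.54, 4.87, 4.88 and 4.92 in the control/normal group, 4.73, 4.67, 5.00 and 4.91 in hydrogen/normal, 5.12, 5.26, 5.08 and 5.46 in control/CDAA and 5.25, 5.62, 5.17 and 5.48 in hydrogen/CDAA log2. It was higher on every CDAA array (1.34-fold in control rats, limma adjusted p = 0.00892, and 1.47-fold in hydrogen-treated rats, adjusted p = 0.00123). Ccl4 gave 5.83, 5.82, 6.12 and 5.85 in the control/normal group, 5.62, 5.79, 5.93 and 5.58 in hydrogen/normal, 6.31, 6.06, 6.17 and 6.48 in control/CDAA and 6.33, 6.97, 6.14 and 6.59 in hydrogen/CDAA. Its control groups overlapped and were not called (0.35 ± 0.145, adjusted p = 0.0724), and it rose in hydrogen-treated rats (0.78 ± 0.145, 1.71-fold, adjusted p = 0.000492). In control rats it was called without control/CDAA replicate 2 or hydrogen/CDAA replicate 2 or 3, and with only the 8 arrays compared. Ccl5 gave 6.89, 6.98, 7.13 and 6.54 in the control/normal group, 6.83, 6.58, 6.68 and 6.60 in hydrogen/normal, 6.39, 6.30, 6.34 and 6.44 in control/CDAA and 6.71, 6.71, 6.29 and 6.22 in hydrogen/CDAA. In control rats it fell without overlap (−0.52 ± 0.125, 1.43-fold lower, adjusted p = 0.00411), and in hydrogen-treated rats the groups overlapped (−0.19 ± 0.125, adjusted p = 0.226). Members of this cluster thus stood higher (Ccl3), lower (Ccl5) and uncalled (Ccl6, Ccl9) within the same comparison.

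Ccr1, a receptor of Ccl3, Ccl5 and Ccl7, gave 3.63, 3.73, 3.76 and 3.82 in the control/normal group, 3.85, 3.77, 3.79 and 3.76 in hydrogen/normal, 4.22, 3.94, 4.17 and 3.92 in control/CDAA and 4.30, 4.36, 4.25 and 4.51 in hydrogen/CDAA log2. Normal-diet signals lay close to the background line, 1 of them below it, and every CDAA array was higher. The change was 0.33 ± 0.0756 in control rats (1.25-fold, limma adjusted p = 0.00312) and 0.56 ± 0.0756 in hydrogen-treated rats (1.48-fold, adjusted p = 2.89e-05). Its chromosomal neighbours Ccr2 and Ccr3 stayed under the line.

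**Figure D4:**
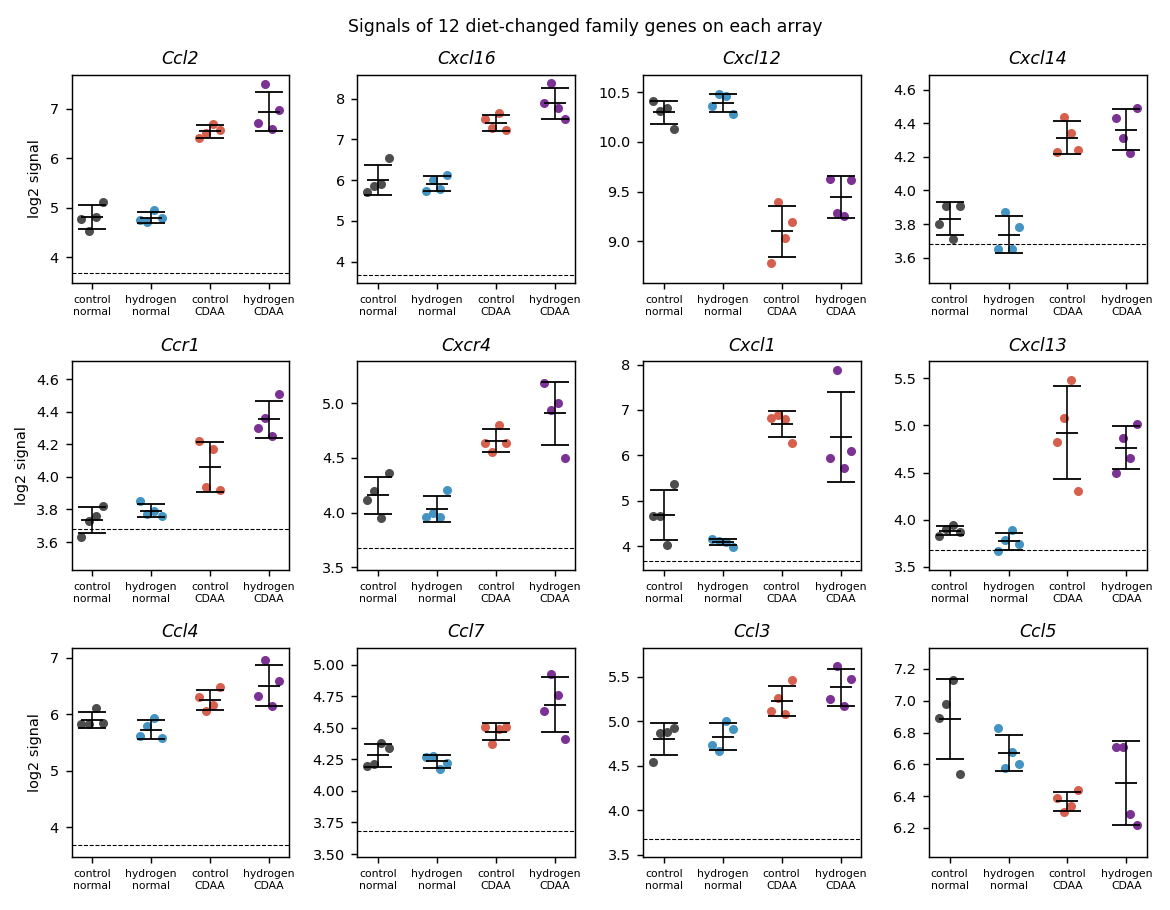
Log2 signal (y axes, not starting at 0) on each of the 16 arrays for the 12 family genes with the smallest p in either diet comparison, by group (x axis); bars are the mean ± SD of 4 arrays and the dashed line is the background line at 3.68, drawn where it falls in range. Ccl2, Cxcl16 and Cxcl1 separate the diets fully, Cxcl12 does so downwards, and 1 hydrogen/CDAA array of Cxcl1 stands at 7.87.

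Ccl19 and Ccl21, ligands of Ccr7 made by lymphoid stroma, both rose in control rats. Ccl21 gave 5.07, 5.08, 5.30 and 5.32 in the control/normal group, 5.20, 5.36, 5.29 and 4.81 in hydrogen/normal, 6.05, 5.40, 6.37 and 5.55 in control/CDAA and 6.51, 6.19, 5.78 and 5.58 in hydrogen/CDAA log2. Its CDAA arrays were spread widely and all lay above the normal-diet arrays (0.65 ± 0.21, 1.57-fold, limma adjusted p = 0.0238, and 0.85 ± 0.21, 1.80-fold, adjusted p = 0.00395). The control call was lost on leaving out control/normal replicate 1 or 2 or control/CDAA replicate 1 or 3, with adjusted p up to 0.0891. Ccl19 gave 4.92, 5.06, 4.97 and 5.04 in the control/normal group, 5.16, 5.15, 5.18 and 5.17 in hydrogen/normal, 5.21, 5.25, 5.17 and 5.09 in control/CDAA and 5.34, 5.26, 5.29 and 5.17 in hydrogen/CDAA. The change was small (1.13-fold, adjusted p = 0.0144) and was lost without control/normal replicate 1, when the arrays were quantile-normalised again and when they were centred on the median of tested probe sets (adjusted p up to 0.0753); it was not called in hydrogen-treated rats (adjusted p = 0.139). Ccl27, their neighbour on chromosome 5 and a skin-homing ligand, gave 4.62, 4.74, 4.59 and 4.76 in the control/normal group, 4.75, 4.67, 4.88 and 4.61 in hydrogen/normal, 4.27, 4.60, 4.26 and 4.25 in control/CDAA and 4.46, 4.39, 4.28 and 4.43 in hydrogen/CDAA. It was lower by 1.26-fold in both comparisons (adjusted p = 0.00503 and 0.00369), with 1 control/CDAA array, at 4.60, inside the range of the normal diet.

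Ccl22, Ccr4 and Ccl24 had low signals and small changes. Ccl22, a ligand of Ccr4, gave 3.72, 3.74, 3.58 and 3.72 in the control/normal group, 3.78, 3.79, 3.82 and 3.87 in hydrogen/normal, 3.72, 3.75, 3.68 and 3.72 in control/CDAA and 3.76, 3.67, 3.46 and 3.49 in hydrogen/CDAA log2. It was called lower in hydrogen-treated rats only by its representing probe set, with 3 of the 4 hydrogen/CDAA arrays under the background line, so that no fold is given (limma adjusted p = 0.0121), a call that ended when the arrays were quantile-normalised again (adjusted p = 0.0502). Ccr4, a receptor of regulatory and helper T cells, gave 3.75, 3.92, 3.80 and 3.79 in the control/normal group, 3.86, 3.93, 3.93 and 3.92 in hydrogen/normal, 3.63, 3.66, 3.80 and 3.69 in control/CDAA and 3.50, 3.82, 3.65 and 3.76 in hydrogen/CDAA. It too was called lower in hydrogen-treated rats (adjusted p = 0.0121), with 2 of the 4 hydrogen/CDAA arrays under the line. Ccl24, an eosinophil-directed ligand, gave 4.09, 3.93, 4.15 and 4.27 in the control/normal group, 4.36, 4.57, 4.23 and 4.02 in hydrogen/normal, 3.84, 4.13, 4.09 and 4.09 in control/CDAA and 3.96, 4.20, 3.90 and 3.75 in hydrogen/CDAA. Its groups overlapped (1.27-fold lower under hydrogen, adjusted p = 0.0243), and the call ended without hydrogen/normal replicate 1 or 2 or hydrogen/CDAA replicate 3 or 4, with adjusted p up to 0.0905. In control rats Ccl22, Ccr4 and Ccl24 were not called (adjusted p = 0.773, 0.182 and 0.659).

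Ackr1, the Duffy receptor of venular endothelium and red cells, gave 3.98, 3.80, 3.69 and 4.12 in the control/normal group, 3.71, 3.88, 3.81 and 3.73 in hydrogen/normal, 3.64, 3.69, 3.61 and 3.50 in control/CDAA and 3.61, 3.70, 3.59 and 3.67 in hydrogen/CDAA log2. On the CDAA diet 6 of 8 arrays lay under the background line, and it was called lower in control rats (limma adjusted p = 0.0103; no fold is given, since 3 of the 4 control/CDAA arrays are under the line) but not in hydrogen-treated rats (adjusted p = 0.164). Cx3cr1, the fractalkine receptor of monocytes and resident macrophages, gave 5.07, 4.78, 5.16 and 4.92 in the control/normal group, 5.24, 5.10, 4.96 and 4.86 in hydrogen/normal, 4.78, 4.54, 4.66 and 4.82 in control/CDAA and 4.80, 4.84, 4.81 and 4.71 in hydrogen/CDAA. It was lower in both comparisons (1.22-fold, adjusted p = 0.0255, and 1.19-fold, adjusted p = 0.0375), but these calls rest on single arrays. The control call ended without control/normal replicate 1 or 3 or control/CDAA replicate 2 or 3 (adjusted p up to 0.0892), and the call under hydrogen without hydrogen/normal replicate 1 or 2 or hydrogen/CDAA replicate 1, 3 or 4 (up to 0.127). Its ligand Cx3cl1 lay between 4.27 and 4.68 and was not called (adjusted p = 0.95 and 0.345).

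Members called in no comparison and not described above were Ackr4, a scavenger of Ccl19 and Ccl21 (5.76 to 6.93 log2), Xcl1, the lymphocyte product lymphotactin (3.70 to 4.18), Ccl20 (3.76 to 4.05) and its receptor Ccr6 (3.62 to 3.97), and Ccl17, a Ccr4 ligand (3.45 to 4.07). Their diet changes ran from −0.19 (Ccl17) to 0.21 (Xcl1) in control rats.

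Cell-type marker lists differed in how they changed on the CDAA diet, and their part in the results was not tested. The following lists leave out genes of the family itself, and their counts stand beside 27.3% of all genes called higher and 13.3% lower in control rats and 32.1% and 17.3% in hydrogen-treated rats. Of 12 macrophage genes tested 5 rose and 1 fell in control rats and 8 rose in hydrogen-treated rats (median log2 change 0.22 and 0.41, beside 0.04 and 0.05 over all genes). The mean over the list was 6.95 to 7.59 log2 in control/normal, 7.18 to 7.33 in hydrogen/normal, 7.71 to 7.94 in control/CDAA and 7.77 to 8.24 in hydrogen/CDAA livers. Gpnmb, a gene of lipid-laden macrophages, was 5.96-fold higher in control rats and 9.25-fold in hydrogen-treated rats, and Lgals3, which encodes galectin-3, was 2.27-fold and 3.56-fold higher. Cd68, a lysosomal macrophage marker, rose 1.88-fold and 2.28-fold. Clec4f, a marker of resident Kupffer cells, was 1.53-fold lower in control rats (limma adjusted p = 0.00892). Of 10 marker genes of stellate cells and fibroblasts 6 rose in control rats and 8 in hydrogen-treated rats (median 0.41 and 0.65), with Dcn (decorin) 3.11-fold and 3.46-fold higher. The mean over that list was 6.44 to 6.97 in control/normal, 6.53 to 6.67 in hydrogen/normal, 7.08 to 7.31 in control/CDAA and 7.19 to 7.39 in hydrogen/CDAA livers.

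Lymphocyte markers were low. Of 9 T-cell genes measured Cd3d and Cd5 did not pass the filter, and 1 rose and 2 fell in control rats and 1 rose and 1 fell in hydrogen-treated rats. The mean over the T-cell list was 4.15 to 4.24 log2 in control/normal, 4.16 to 4.29 in hydrogen/normal, 4.09 to 4.16 in control/CDAA and 4.16 to 4.29 in hydrogen/CDAA livers. Of 8 NK-cell genes Ncr1, Klrd1, Gzmb and Klrc1 did not pass the filter. Of the 4 tested 0 rose and 2 fell in control rats, and 0 rose and 1 fell in hydrogen-treated rats. Gzma, which encodes a granzyme, was 1.62-fold lower in control rats (limma adjusted p = 0.00372) and 1.65-fold lower in hydrogen-treated rats (adjusted p = 0.00236). The NK-cell list mean was 3.85 to 4.03 in control/normal, 3.87 to 3.91 in hydrogen/normal, 3.76 to 3.86 in control/CDAA and 3.65 to 4.04 in hydrogen/CDAA livers. Ccl5, which NK and T cells make, fell in control rats as Gzma did, but was not called in hydrogen-treated rats, where Gzma was lower too. A link between the 2 genes was not tested. Of 4 B-cell genes tested 0 were called in control rats and Jchain rose in hydrogen-treated rats (1.90-fold, adjusted p = 0.00579). Of 5 dendritic cell genes Cd83 alone was called, 2.25-fold and 3.23-fold higher. In the endothelial list of 6 genes 1 and 2 rose, in the bile duct list of 6 tested 2 and 3 rose, and in the blood and platelet list of 5 tested 0 rose and 3 fell in control rats and 1 rose and 1 fell under hydrogen.

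Genes of the pathway around the family, like all genes tested, were called more often upwards than downwards on the CDAA diet. The shares over all genes were 27.3% higher and 13.3% lower in control rats and 32.1% and 17.3% in hydrogen-treated rats. Of 27 receptor signalling genes tested 10 rose and 0 fell in control rats and 14 rose and 1 fell in hydrogen-treated rats (median log2 change 0.18 and 0.27, beside 0.04 and 0.05 over all genes). Among them were Pak1, a kinase downstream of Rac and Cdc42 (1.35-fold and 1.50-fold), and Gnb1, a G protein beta subunit (1.35-fold and 1.44-fold). Arrb2, the beta-arrestin that ends receptor signalling, was 1.23-fold higher in control rats (limma adjusted p = 0.0433) and 1.67-fold in hydrogen-treated rats (adjusted p = 6.89e-05). Of 22 NF-kappaB and cytokine genes tested, which include inducers of chemokine transcription, 11 rose and 0 fell in control rats and 15 rose and 1 fell in hydrogen-treated rats (median 0.33 and 0.47). Birc3, an NF-kappaB target, rose 1.83-fold and 1.71-fold, and Nfkb2, which encodes the p100 subunit, 1.56-fold and 1.64-fold. Il1r1, Il6 and Ifng did not pass the filter.

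The same shares of all genes (27.3% and 32.1% higher) stand beside the following counts. Of 15 adhesion and integrin genes tested 6 rose and 1 fell in control rats and 10 rose and 1 fell in hydrogen-treated rats (median log2 change 0.21 and 0.34). Vcam1, the endothelial ligand of the integrin VLA-4, was 2.58-fold and 3.67-fold higher (limma adjusted p = 1.58e-06 and 9.32e-08), and the integrin subunit Itgb1 1.84-fold and 2.06-fold. The selectin genes Sele and Selp did not pass the filter. Of 14 genes of chemokine processing and presentation 5 rose and 1 fell in control rats and 6 rose and 2 fell in hydrogen-treated rats (median 0.10 and 0.23). Mmp12, the macrophage elastase that cleaves chemokines, was 12.0-fold and 25.1-fold higher, Ext1, which extends heparan sulphate, 2.11-fold and 2.18-fold higher, and Sdc2, a heparan sulphate proteoglycan, 1.49-fold and 1.30-fold lower. A further list held genes under other symbols, not all of them relatives of the family. Of its 7 tested genes 2 rose and 1 fell in control rats, and 3 rose and 1 fell in hydrogen-treated rats. Mif rose 1.51-fold and 1.35-fold, and Ccrl2, an atypical receptor of chemerin, 1.24-fold and 1.38-fold. Cmklr1, the signalling chemerin receptor, was 1.31-fold lower in hydrogen-treated rats (limma adjusted p = 6.88e-05).

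Hydrogen changed no family gene on either diet at an adjusted p under 0.05 in limma. On the normal diet 1 gene of 11435 was called higher (0.00875%) and 0% lower, and on the CDAA diet 0.192% were called higher and 0.184% lower, rates at which 36 genes would hold few calls or none. At an unadjusted p under 0.05, 2 members (5.56%) were higher and 0 lower on the normal diet, beside 3.31% and 3.8% of all genes. On the CDAA diet 8 members (22.2%) were higher and 0 lower at that level, beside 7.28% and 5.31% of all genes, and these counts rest on hydrogen/CDAA replicate 2. Without that array 2 members were higher (5.56%) and 3 lower (8.33%), beside 5.41% and 4.57% of all genes. Without control/CDAA replicate 2 the count of higher members was 5, beside 9.42% of all genes, and leaving out any other single array gave 6 to 9 higher and 0 or 1 lower. The median log2 change over the 36 members was 0.07 on the CDAA diet (0.07 also without hydrogen/CDAA replicate 2) and −0.01 on the normal diet, beside 0.01 and −0.01 over all genes, and the macrophage markers had a median of 0.21 and −0.08. The 36 members are not independent of each other or of those markers, whose part was not tested.

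The 8 members higher at an unadjusted p under 0.05 on the CDAA diet were Ccr1, Cxcl12, Cxcr3, Ccl2, Ackr3, Cxcl16, Ccl7 and Cxcl11. For Ccr1, whose values on every array are given above, the hydrogen/CDAA arrays (4.25 to 4.51) all exceeded the control/CDAA arrays (3.92 to 4.22), a difference of 0.29 ± 0.0756 log2 (95% interval 0.13 to 0.45, limma adjusted p = 0.141). It was the only member whose groups did not overlap in this comparison (2.78%, background 3.76%). Cxcl12 was higher by 0.35 ± 0.118 (0.10 to 0.60, adjusted p = 0.255), which lies against the direction of its diet change. Ccl2 differed by 0.40 ± 0.157 (0.07 to 0.73, adjusted p = 0.325), and without hydrogen/CDAA replicate 2 by 0.22 (adjusted p = 0.578). Cxcl16 differed by 0.47 ± 0.185 (0.08 to 0.86, adjusted p = 0.334), and without that array by 0.30 (adjusted p = 0.592). Ackr3 differed by 0.49 ± 0.193 (0.08 to 0.90, adjusted p = 0.334) and, without the array, by 0.30 (adjusted p = 0.595). Cxcr3 differed by 0.21 (0.16 without the array), Ccl7 by 0.21 (0.13) and Cxcl11 by 0.27 (0.13). The 4 control/CDAA arrays of Cxcr3 (3.43 to 3.68) lay at or under the background line. Without that array Ccr1 differed by 0.29 (adjusted p = 0.232) and Cxcl12 by 0.40 (adjusted p = 0.266), and these were the 2 of the 8 still under an unadjusted p of 0.05.

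Cxcl1 and Cxcl10 stood on the other side, with intervals that include 0. Cxcl1 was −0.30 ± 0.361 log2 under hydrogen on the CDAA diet (−1.06 to 0.47, limma adjusted p = 0.807), and 3 of its 4 hydrogen/CDAA arrays (5.71 to 6.09) lay below the lowest control/CDAA array (6.27) while replicate 2 stood at 7.87. Without that array the difference was −0.78 (limma unadjusted p = 0.00292, adjusted p = 0.222). Cxcl10 differed by −0.35 ± 0.229 (−0.83 to 0.14, adjusted p = 0.603), again with replicate 2, at 6.68, above every control/CDAA array and the other 3 (5.26 to 5.82) below them. Without it the difference was −0.64 (limma unadjusted p = 0.000685, adjusted p = 0.12). Without replicate 2 both thus lay under an unadjusted p of 0.05, as Xcl1 did, and neither passed the adjusted threshold.

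On the normal diet the members with an unadjusted p under 0.05 were Ccl19 (0.17 ± 0.0536 log2, limma adjusted p = 0.491) and Cx3cl1 (0.22 ± 0.0755, adjusted p = 0.529). Together with Ccl22 they were the 3 members whose groups did not overlap there (8.33%, background 5.69%). Differences on this diet ran from −0.60 for Cxcl1, with a 95% interval of −1.36 to 0.17, to 0.25 for Ackr4.

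**Figure D5:**
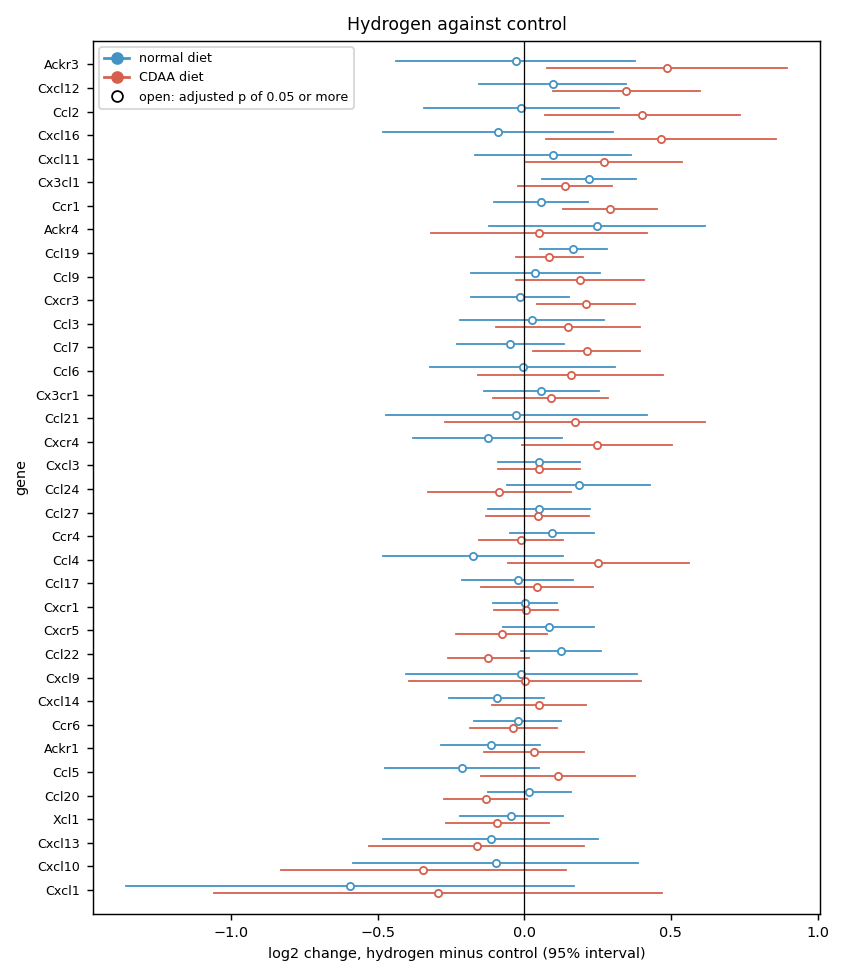
Log2 difference between hydrogen-treated and control rats (x axis) for the 36 tested family genes (rows), on the normal diet (blue) and the CDAA diet (red), with 4 arrays per group; lines are 95% intervals and all points are open, since no adjusted p was under 0.05. On the CDAA diet the intervals of Ccr1, Cxcl12, Ccl2, Ackr3 and Cxcl16 lie above 0 before adjustment, and Cxcl1 has the widest intervals.

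The interaction, the hydrogen difference on the CDAA diet minus that on the normal diet, was called for no member and for 0% of all genes tested. At an unadjusted p under 0.05 it was positive for Ccr1, Cxcr4, Cxcl16 and Ccl7 (11.1% of 36, beside 6.03% of all genes) and negative for Ccl22 (2.78%, beside 3.24%). Cxcl16 had the largest value, 0.56 ± 0.262 log2 (95% interval 0.00 to 1.11, limma adjusted p = 0.546), followed among these by Cxcr4 (0.37 ± 0.17, adjusted p = 0.535). The larger folds of Ccl2, Cxcl16 and Cxcr4 under hydrogen than in control rats are therefore values side by side, without a called difference.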

How the data were processed

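Liver RNA of 16 rats was hybridised to Affymetrix RG-230 PM arrays, 1 per sample. The authors deposited log2 signals, 1 per probe set and array, and the submitters' processing notes list RMA and Affymetrix Expression Console without versions. RMA quantile-normalises the arrays, so a shift of all transcripts in a group would not show. The table held 31139 probe sets and values from 2.42 to 13.73, with array medians of 4.33 to 4.37. Leaving out 97 array controls, 22634 probe sets passed the line of 3.68 log2 on at least 4 arrays. The 22 antigenomic controls of 3 to 24 GC bases reached at most 3.44. Genes were named from the platform's annotation (19063 probe sets with 1 symbol, 572 with several and not named, 11407 not listed), and all 45 members matched a current rat gene in the GRCr8 RefSeq table.

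From these values all 16 arrays entered 1 model with a mean for each group (limma 3.58.1, R 4.3.3), with eBayes and Benjamini-Hochberg adjustment over all tested probe sets within each of 5 contrasts, and an adjusted p under 0.05 was a call. Adjusted p-values are limma's throughout, and errors beside changes are the standard errors of that fit with n = 4 arrays per group. The scripts were tested on simulated data. Plots used matplotlib 3.10.9 (Python 3.11.15). The number of arrays limits the precision. Strip position and scanning times are unknown here.

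The members and gene lists were chosen with earlier results of these data known. Every tested member was named, with values on every array for those called in any comparison and for the 5 highest mean signals. Of other lists up to 4 called genes per comparison with the smallest p could be named, besides genes that did not pass the filter. Alternatives covered normalisation, filter, probe set choice, variance model, arrays in the fit, the replicate number as a block and leaving out each array.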

Additional observations from a re-analysis of the deposited data

Results flagged for a closer look

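In 144 groups of 4 arrays (36 genes, 4 groups) 15 had an array set apart from the other 3 by more than Dixon's 95% limit, beside about 1 in 20 that chance gives. Most gaps were small. Among genes called on the diet, Cxcl1 stood at 6.27 log2 on control/CDAA replicate 4 (others 6.81 to 6.88), Ccl3 at 4.54 on control/normal replicate 1 (4.87 to 4.92), Ccl4 at 6.12 on control/normal replicate 3 (5.82 to 5.85) and Cxcr4 at 4.21 on hydrogen/normal replicate 4 (3.96 to 4.00). Ccl7 stood at 4.37 on control/CDAA replicate 2 (4.49 to 4.51), Ccl24 at 3.84 on control/CDAA replicate 1 (4.09 to 4.13) and Ccl27 at 4.60 on control/CDAA replicate 2 (4.25 to 4.27). Ccl22 stood at 3.58 on control/normal replicate 3 (3.72 to 3.74) and Ccr4 at 3.86 on hydrogen/normal replicate 1 (3.92 to 3.93). Among genes not called, Ackr4 showed the widest gap, with 5.76 on control/normal replicate 2 against 6.61 to 6.72. Ccl20 stood at 3.76 on control/normal replicate 3 (3.92 to 3.95), Cx3cl1 at 4.62 on hydrogen/normal replicate 4 (4.66 on the other 3) and Cxcr3 at 3.94 on hydrogen/normal replicate 1 (3.70 to 3.74). Cxcl3 stood at 4.18 on control/CDAA replicate 2 (4.37 to 4.39) and at 4.58 on hydrogen/CDAA replicate 3 (4.28 to 4.33). The value of 7.87 for Cxcl1 on hydrogen/CDAA replicate 2 (others 5.71 to 6.09) was not among them, but fell only just short of the limit.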

How the results depend on the processing

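The 35 diet calls of single members were recomputed under 875 alternatives in all: 841 kept direction and call, 34 lost the call and 0 reversed. Of the 34, 25 came from the 560 fits that left out 1 array and 9 from the other 315. The 560 include fits without an array of a group outside the comparison. Those could not move the change or its direction, only its error. All 25 losses came from leaving out an array of the groups compared. Calls lost under at least 1 alternative were those of Ccl19, Ccl21 and Cx3cr1 in control rats and of Ackr3, Ccl22, Ccl24, Cx3cr1 and Cxcr5 in hydrogen-treated rats. Other members gained a call under at least 1 alternative. In control rats these included Ccl4, Ccl7, Cxcl9 and Xcl1 as higher and Cxcr3 as lower. In hydrogen-treated rats they included Cxcl9, Cxcl10 and Xcl1 as higher and Ccl5 as lower. The number of genes lower on the CDAA diet became 8 (from 5) in control rats and 11 (from 7) in hydrogen-treated rats when arrays were centred on the median of the tested probe sets, a setting added after seeing the data that shifts all changes downwards; over all tested probe sets it gave 3686 higher and 5274 lower in control rats, beside 4760 and 3267 in the main setting, and 4220 and 8167 beside 5778 and 4371 in hydrogen-treated rats. Quantile normalisation applied again gave 3941 and 3825, and 4560 and 5006. Leaving out 1 array gave 4 to 7 lower genes in hydrogen-treated rats, with 4 without hydrogen/normal replicate 1 or hydrogen/CDAA replicate 3. Cxcl14 changed by 0.23 and 0.26 log2 when its probe sets were averaged. The hydrogen and interaction comparisons gave 0 called members under every setting run. At an unadjusted p under 0.05, counts added after seeing the data, leaving out 1 array gave 2 to 9 higher and 0 to 3 lower members for hydrogen on the CDAA diet and 2 to 3 higher and 0 to 2 lower on the normal diet, with 2 without control/normal replicate 3. The fit of only the 8 arrays compared gave 5 higher on the CDAA diet and 1 lower on the normal diet, centring on the tested probe sets gave 2 lower on the CDAA diet, and no filter gave 1. With the replicate number as a block, 11 genes were higher and 6 lower in control rats (Cxcr3 added) and 12 and 7 in hydrogen-treated rats. Deviations of same-numbered arrays correlated from −0.13 to 0.33. Between control/CDAA and hydrogen/CDAA the values were −0.08, 0.26, 0.33 and 0.19 for replicates 1 to 4. No values of differently numbered arrays stand beside these, so they cannot decide whether the numbers pair the samples. The main fit did not use the numbers as pairs. Signals near the background line limit the dim members, mostly receptors.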

Other observations

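By gene order in the RefSeq table (GRCr8), 26 of the 45 members lie in 7 clusters in which neighbouring members are at most 20 coding genes apart. The largest, on chromosome 14, holds Cxcl11, Cxcl10, Cxcl9, Cxcl2, Cxcl1, Cxcl3 and Cxcl6 within 27 coding genes. Within it, Cxcl1 rose 4.04-fold and Cxcl10 1.74-fold on the CDAA diet in control rats, while Cxcl2 and Cxcl6 stayed under the background line and Cxcl11 changed by −0.18 log2 without a call. Another cluster, on chromosome 19, holds Ccl17, Cx3cl1 and Ccl22, none of which was called in control rats.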
